A study of Mus musculus with 6 samples.

Results

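The 43 genes described here encode enzymes of the citric acid cycle with pyruvate dehydrogenase and of the breakdown of branched-chain amino acids, measured in mouse heart. They were chosen by name, and every probe set annotated to exactly 1 of them was taken, 95 of the 45101 on the array. They are 43 of the 11016 genes tested in all. The cycle arm holds 22 genes and the branched-chain arm 19, and 2 genes of ketone body use complete the list. Each listed gene had at least 1 probe set bright enough to be tested, and 81 of the 95 probe sets passed that filter. Methylmalonyl-CoA mutase, listed under its older symbol Mut, is Mmut in the annotation.

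RNA was hybridised to 6 Affymetrix whole-genome expression arrays, 3 from hearts of C57BL/6 mice overexpressing hAT1R and 3 from hearts of normal C57BL/6 mice. hAT1R is the human type 1 receptor of angiotensin II, a vasoconstrictor hormone that also acts on heart muscle cells. By the series' design text the mice were age- and sex-matched, while the sources used here do not give the ages, the promoter that drives the transgene or the number of founder lines. Whether an array stands for 1 animal or a pool is not labelled, so p-values measure only the spread between these samples, which may be technical.

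In the mitochondrion, pyruvate dehydrogenase turns pyruvate into acetyl-CoA, and the citric acid cycle oxidises acetyl-CoA while reducing the carriers that feed the respiratory chain. Leucine, isoleucine and valine are first transaminated, then committed to oxidation by the branched-chain ketoacid dehydrogenase complex, and finally broken down on separate routes that enter the cycle or its acetyl-CoA pool. The heart draws most of its energy from such oxidation and is dense in mitochondria.

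Several facts of the whole series touch these results. The name typed into the instrument record carried the other group's word on all 6 arrays, "control" where the sample label says transgenic and "transgene" where it says non-transgenic. The groups follow the sample labels, "labelled transgenic" is written for that reason, and taking the typed names would turn every sign. Fluidics station 2 handled non-transgenic array 1 together with the 3 labelled transgenic arrays, and station 3 handled the remaining 2. The scanner read the labelled transgenic arrays first, so scan order and group cannot be told apart. Xist, the RNA of the inactive X chromosome, was high on 2 labelled transgenic arrays and 1 non-transgenic array, so the sexes were not equally represented. On the actin control, the 3' end exceeded the 5' end by 0.796 to 0.939 (log2) on the labelled transgenic arrays and by 0.974 to 1.053 on the others, and the part of this gauge in the results was not tested.

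No member passed limma's moderated test after Benjamini-Hochberg adjustment over all probe sets tested. With that test, 0 of the 81 member probe sets were called at an adjusted p under 0.05, against 0.218% of all 22518, while 36 were lower and 2 higher at an unadjusted p under 0.05, where the shares over all probe sets were 6.98% and 9.41%. The groups did not overlap at 41 member probe sets that were lower and 3 that were higher, against 9.78% and 13.2% of all probe sets. Most members were nevertheless slightly lower in the labelled transgenic hearts. With each gene represented by its brightest probe set, 38 of the 41 genes in both arms had a negative change, against 47.6% of all 11016 genes. By gene, the share called after adjustment was 0.227% of all genes and 0 of the members. The median change over both arms was -0.20 on the log2 scale, or 87.1% of the non-transgenic level, against 0.01 over all genes. All changes below are labelled transgenic minus non-transgenic on the log2 scale.

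The arms had nearly equal medians and unequal spread. The cycle arm had a median of -0.19, with 20 of 22 genes negative, and 13 genes were lower at an unadjusted p under 0.05, where 7.76% of all genes were. The branched-chain arm had a median of -0.21, with 18 of 19 genes negative, and 5 genes were lower at that threshold. No gene of either arm was higher at that threshold. In 16 cycle genes and 5 branched-chain genes all 3 labelled transgenic values lay below all 3 others, which 10.9% of all genes did. The difference between the arms in these counts was not tested. The median standard deviation between arrays of 1 group was 0.05 in the cycle arm, in both groups, and 0.13 in the branched-chain arm, against 0.11 and 0.13 over all genes. The arms also differed in brightness. Mean levels ran from log2 11.51 to 14.68 in the 13 genes of the cycle itself and from 8.11 to 13.07 in the branched-chain arm. The part of brightness in the spread and the counts was not tested.

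The counts depended on single arrays more than the medians did. The cycle count of 13 became 8 when labelled transgenic array 2, labelled transgenic array 3 or non-transgenic array 3 was left out, where the shares of all genes were 5.14%, 5.31% and 6.8%. The branched-chain count of 5 became 8 with labelled transgenic array 1 left out, 3 with labelled transgenic array 3 left out and 2 with non-transgenic array 3 left out, where the first of these shares was 7.08%. With the fluidics station as a term, which sets the labelled transgenic arrays against non-transgenic array 1 alone, the counts were 7 and 4, where 10.3% of all genes were lower, and the medians were -0.19 and -0.30.

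**Figure D1:**
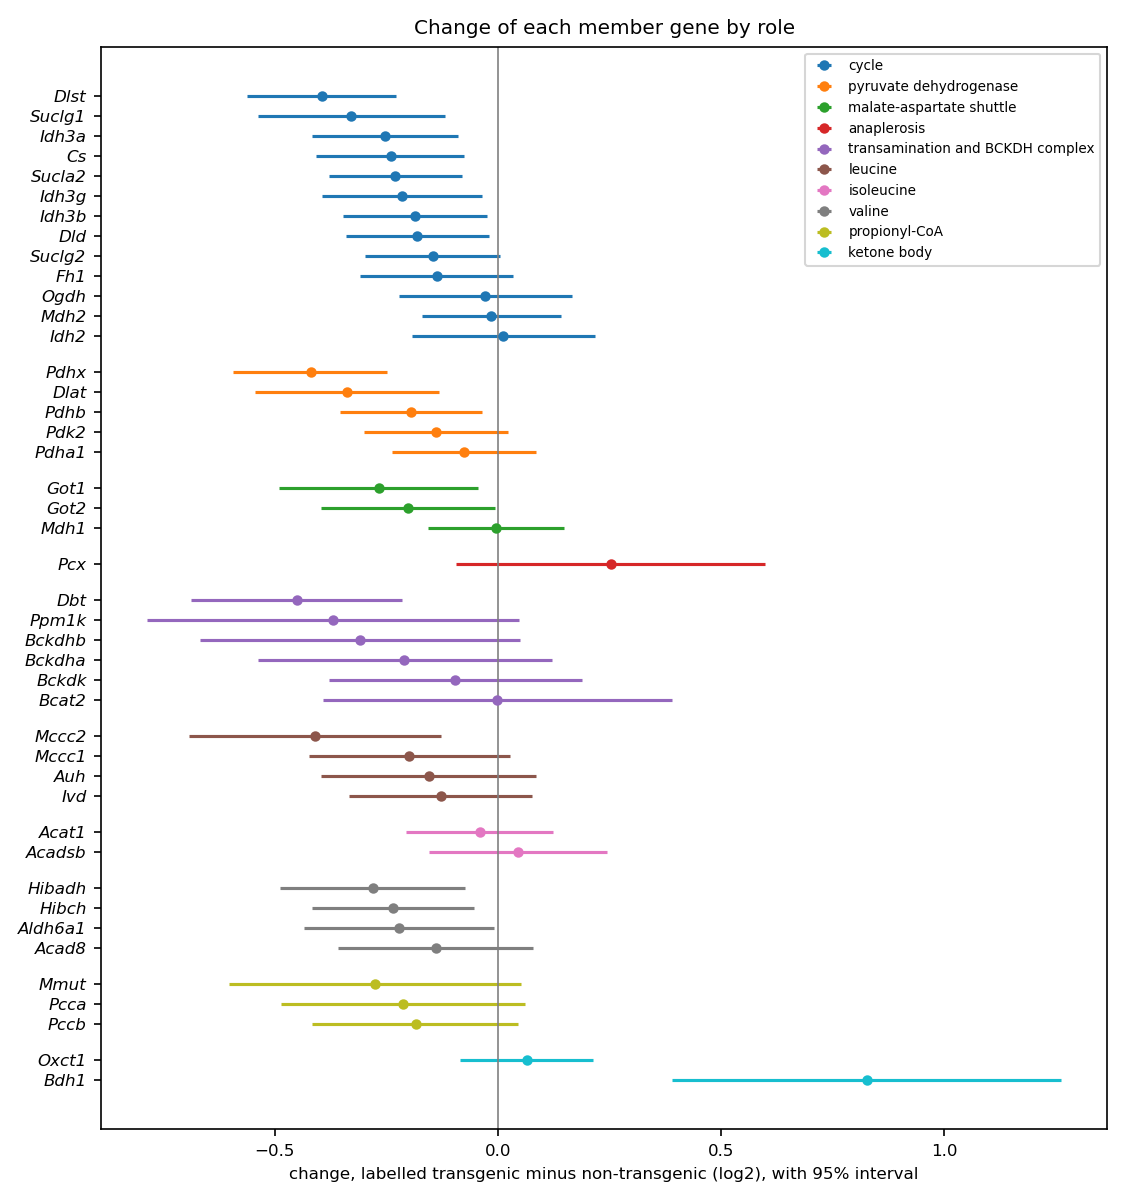
Change of each member gene (horizontal axis, log2, labelled transgenic minus non-transgenic, n = 3 arrays per group) for its brightest probe set, grouped by role; points are limma estimates and bars their 95% intervals. The points lie left of 0 for 38 of the 43 genes, and Bdh1 stands to the right at 0.83.

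Promoter stretches of 5 members are shown because these genes carry the results: Pdhx and Dlst had the smallest p of the cycle arm, Cs encodes its entry enzyme, Mccc2 followed Dbt in the branched-chain arm, and Bdh1 was the member that was higher. Each is the 120 bases before the RefSeq gene start on assembly GRCm38.p6, 5′ to 3′ on the gene's strand, and capitals mark matches on either strand to the 6 motifs searched.
Pdhx (chr2:103073514-103073633, minus strand): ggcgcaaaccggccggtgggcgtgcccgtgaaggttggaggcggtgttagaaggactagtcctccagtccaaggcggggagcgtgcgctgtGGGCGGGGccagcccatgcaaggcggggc
Dlst (chr12:85110713-85110832, plus strand): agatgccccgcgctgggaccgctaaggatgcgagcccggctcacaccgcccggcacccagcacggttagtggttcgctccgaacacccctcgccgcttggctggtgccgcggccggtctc
Cs (chr10:128337607-128337726, plus strand): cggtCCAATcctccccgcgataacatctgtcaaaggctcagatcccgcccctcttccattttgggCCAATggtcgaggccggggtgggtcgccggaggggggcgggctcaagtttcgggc
Mccc2 (chr13:100015640-100015759, minus strand): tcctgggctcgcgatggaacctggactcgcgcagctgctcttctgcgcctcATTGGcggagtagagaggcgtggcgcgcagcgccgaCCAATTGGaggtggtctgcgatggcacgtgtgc
Bdh1 (chr16:31422177-31422296, plus strand): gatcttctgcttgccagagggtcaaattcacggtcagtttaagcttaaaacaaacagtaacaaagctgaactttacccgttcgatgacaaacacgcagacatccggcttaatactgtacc

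The motifs were searched in the 250 bases before the start of the 39 members with a RefSeq promoter window. CCAAT, the CCAAT box, was present in 22 of the 39, or 56.4%, against 37.5% of 27025 genes with a window and 39.5% of the 17492 protein-coding ones. GGGCGGGG, a site of the SP1 family, was present in 13, or 33.3%, against 18.0% and 24.1%. In Mccc2 a CCAAT on each strand overlaps the other by 2 bases. TCAAGGTCA of the oestrogen-related receptors, the NRF1 palindrome, CCGGAAGTG of GABP and the PPAR direct repeat were in 0 of the 39. They were in 0.422%, 0.877%, 1.60% and 0.0407% of the 27025 genes with a window. A gene with several windows was counted if any of them held the motif. Dlst and Bdh1 held none of the motifs in the stretches shown. Idh3a, Dbt, Mmut and Acat1 were not matched to a window. These matches describe letters in a window and were not tested.

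Pyruvate dehydrogenase is a multienzyme complex, and its genes had a median of -0.20 with 5 of 5 negative. Pdhx, the protein that anchors the E3 component to the core, was at log2 10.13, 10.17 and 10.20 on the labelled transgenic arrays 1 to 3 and at 10.66, 10.51 and 10.58 on the non-transgenic ones. The highest labelled transgenic value lay below the lowest other value, and the change was -0.42 ± 0.07 (SE, n = 3 per group), or 74.7% of the non-transgenic level (adjusted p = 0.0780). By brightest probe sets this was the smallest p of all members. Across the alternatives Pdhx had an adjusted p between 0.0473, with a stricter brightness filter, and 0.245. Dlat, the acetyltransferase that forms the core, was at 11.67, 11.56 and 11.71 against 12.03, 11.86 and 12.06. Its groups did not overlap, its change was -0.34 ± 0.09 (adjusted p = 0.152), and its 2 other probe sets were at -0.41 and -0.44 (adjusted p = 0.0780 for both).

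The decarboxylase subunits of the complex differed less. Pdhb, the beta subunit, was at 13.48, 13.53 and 13.57 against 13.68, 13.75 and 13.75, a change of -0.20 ± 0.07 (adjusted p = 0.234). These groups did not overlap either, and averaging in a dimmer probe set at -0.44 gave -0.32. Pdha1, the alpha subunit that is switched off by phosphorylation, was at -0.08 with a 95% interval from -0.24 to 0.09, and its groups overlapped. Pdk2, a kinase that performs that phosphorylation, was at -0.14 ± 0.07 (adjusted p = 0.368), without overlap.

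Of the 13 genes of the cycle itself, 12 had a negative change, against 47.6% of all genes. At an unadjusted p under 0.05, 8 of the 13 were lower, where 7.76% of all genes were. Cs, citrate synthase, which joins acetyl-CoA to oxaloacetate, was at 13.97, 14.01 and 13.89 against 14.22, 14.15 and 14.22. All labelled transgenic values lay below the others, by -0.24 ± 0.07 (adjusted p = 0.179), and its 2 dimmer probe sets were at -0.33 and -0.40. The next oxidation is done by NAD-dependent isocitrate dehydrogenase, whose catalytic subunit gene is Idh3a and whose other subunits come from Idh3b and Idh3g. Idh3a was at 13.38, 13.33 and 13.25 against 13.60, 13.57 and 13.55, a change of -0.25 ± 0.07 (adjusted p = 0.165). Its groups did not overlap, its 2 dimmer kept probe sets were at -0.53 and -0.54, and averaging all kept ones gave -0.44. Idh3g was at -0.22 and Idh3b at -0.19, again without overlap. In its brightest probe set each subunit gene of this enzyme was thus lower on every labelled transgenic array. The dimmer Idh3g probe set was at -0.17 without overlap. The dimmer kept Idh3b probe sets were at -0.405, without overlap, and -0.239, with overlap. Idh2, the NADP-dependent mitochondrial isocitrate dehydrogenase, differed from them in its value of 0.01, with an interval from -0.19 to 0.22 and a sign that turned in 5 alternatives.

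Oxoglutarate dehydrogenase shares its build with pyruvate dehydrogenase. Dlst, its succinyltransferase core, was at 12.05, 11.98 and 12.01 against 12.48, 12.35 and 12.40, a change of -0.40 ± 0.07 or 76.0% of the non-transgenic level (adjusted p = 0.0805). The groups were well apart in this probe set, but the 3 other Dlst probe sets, all far dimmer and with overlap, were at -0.08, -0.24 and -0.15, which put the average at -0.22. Dld, the E3 dehydrogenase that pyruvate, oxoglutarate and branched-chain ketoacid dehydrogenases all use, was at -0.18 ± 0.07 (adjusted p = 0.263). Ogdh, the decarboxylase, was at -0.03 with an interval from -0.22 to 0.17, and its sign turned in 2 alternatives. With the station as a term Ogdh was at -0.14, and averaged with a dimmer probe set at -0.11.

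Succinyl-CoA ligase, which makes a nucleoside triphosphate directly, has a shared alpha subunit and alternative beta subunits. Suclg1, the alpha subunit, was at 12.51, 12.47 and 12.26 against 12.77, 12.71 and 12.74, a change of -0.33 ± 0.09 (adjusted p = 0.161). Sucla2, the ADP-forming beta subunit, was at 13.36, 13.41 and 13.35 against 13.62, 13.58 and 13.61, a change of -0.23 ± 0.06 (adjusted p = 0.163). Neither gene's groups overlapped, with labelled transgenic array 3 lowest in both. Suclg2, the GDP-forming beta subunit, was at -0.15, and its other probe set was at -0.03, for an average of -0.09. Fh1, fumarase, was at -0.14 ± 0.07 and Mdh2, the mitochondrial malate dehydrogenase, at -0.02 with an interval from -0.17 to 0.14. The other, dimmer Mdh2 probe set was at -0.15 and its groups did not overlap.

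The malate-aspartate shuttle carries reducing equivalents into the mitochondrion and uses Mdh1, Got1 and Got2. Got1, the cytosolic aspartate aminotransferase, was at -0.27 ± 0.09 (adjusted p = 0.239) and Got2, the mitochondrial one, at -0.20 ± 0.08 (adjusted p = 0.288), both without overlap. Mdh1, the cytosolic malate dehydrogenase and the brightest member, was at -0.004 with an interval from -0.16 to 0.15, and its sign turned in 5 alternatives. A far dimmer kept probe set of the gene was at 6.70, 6.74 and 6.47 against 7.26, 7.47 and 7.33. That probe set had the smallest p of all 81, with a change of -0.72 ± 0.10 (adjusted p = 0.0695). The other kept Mdh1 probe sets, nearly as bright as the first, were at -0.063 and -0.037 with overlap. The dim probe set thus stood apart from the bright ones in the size of a difference, and averaging all kept ones gave -0.205. Pcx, pyruvate carboxylase, which refills the cycle with oxaloacetate, was the dimmest member and had a positive change of 0.25 ± 0.14 (adjusted p = 0.440), with overlapping groups. It was at 0.11 without non-transgenic array 3 and at 0.06 with the station as a term.

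**Figure D2:**
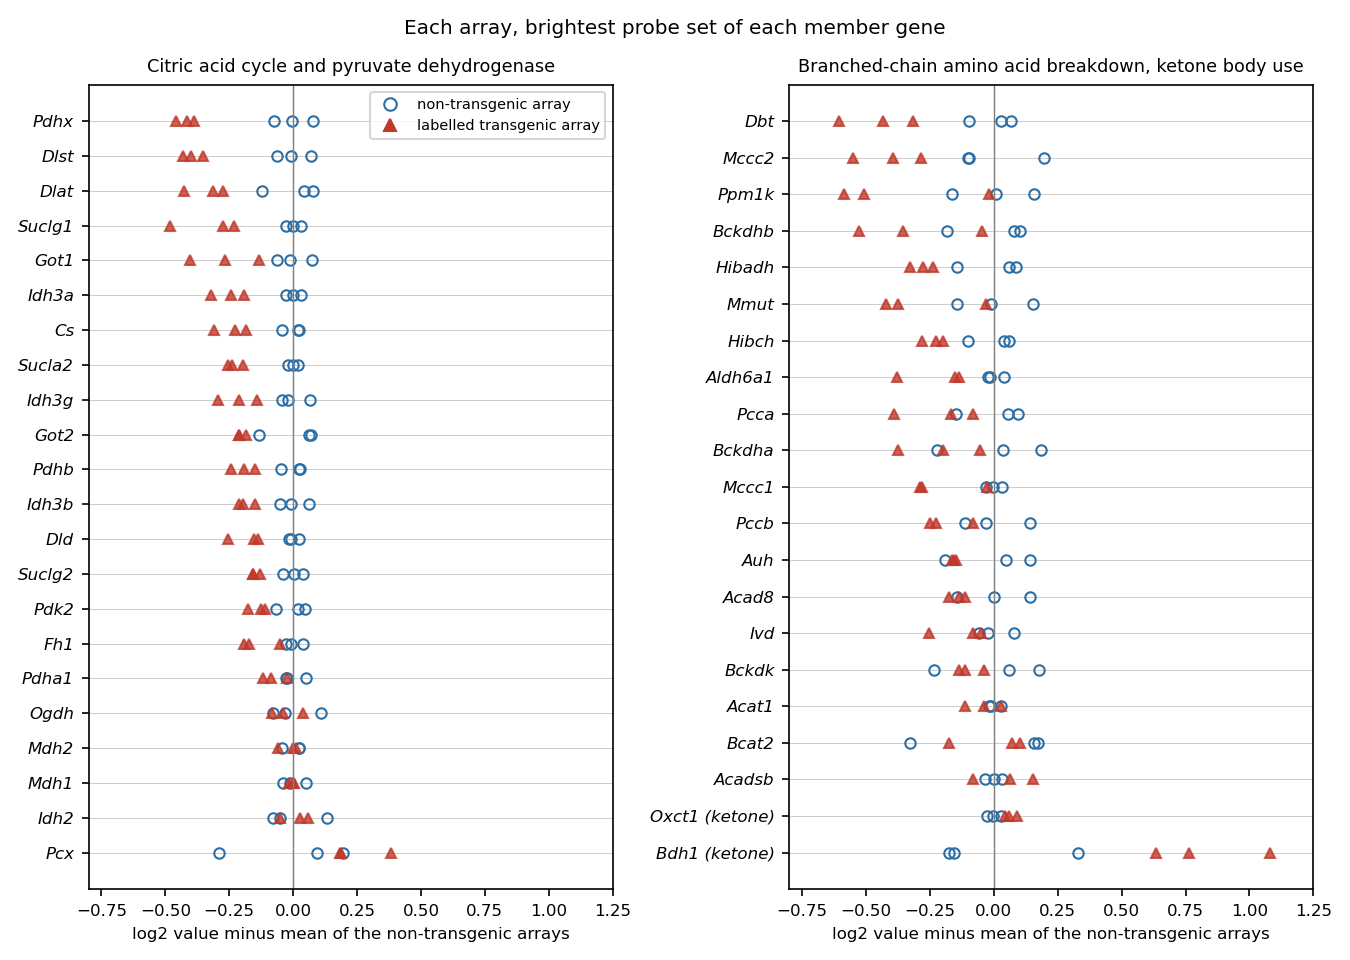
Log2 value on each array minus the mean of the 3 non-transgenic arrays (horizontal axis) for the brightest probe set of each gene, cycle arm at left, branched-chain arm and the ketone body genes at right; triangles are labelled transgenic and circles non-transgenic arrays. The groups lie apart in most cycle genes and overlap in 14 of the 19 branched-chain genes.

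The first steps of branched-chain amino acid breakdown are shared by leucine, isoleucine and valine, and all 6 of their genes had a negative change, with a median of -0.26. Dbt, the transacylase core of the branched-chain ketoacid dehydrogenase complex, was at 9.94, 9.82 and 9.65 against 10.32, 10.29 and 10.16. It was the lowest of all members by change, at -0.45 ± 0.10 or 73.1% of the non-transgenic level (adjusted p = 0.120), and its groups did not overlap. Bckdhb, the beta subunit of the decarboxylase, was at 10.59, 10.28 and 10.11 against 10.74, 10.46 and 10.72, a change of -0.31 ± 0.15 (adjusted p = 0.367) that became -0.20 without labelled transgenic array 3. Its labelled transgenic array 1 lay above non-transgenic array 2, so these groups overlapped. Bckdha, the alpha subunit, was at -0.21 with an interval from -0.54 to 0.12. It was at -0.13 without labelled transgenic array 3, -0.12 without non-transgenic array 1, -0.32 without non-transgenic array 2, -0.40 with the station as a term and -0.12 when the Xist level was a term.

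The complex is held inactive by the kinase Bckdk and freed by the phosphatase Ppm1k. Ppm1k was at 10.91, 10.34 and 10.42 against 11.09, 10.77 and 10.94, a change of -0.37 ± 0.17 (adjusted p = 0.354), and its other probe set was at -0.38. Labelled transgenic array 1 was within the range of the other group in the brighter probe set. Bckdk was at -0.10 with an interval from -0.38 to 0.19. Its value was -0.01 without non-transgenic array 1, -0.21 without non-transgenic array 2, -0.27 with the station as a term and -0.04 when the Xist level was a term. Bcat2, the mitochondrial transaminase of the reversible first step, was at -0.002 with an interval from -0.39 to 0.39, the widest of the near-zero members, and its sign turned in 5 alternatives.

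On the leucine route all 4 genes had a negative change. Mccc2, the beta subunit of methylcrotonyl-CoA carboxylase, was at 9.22, 9.11 and 8.96 against 9.70, 9.41 and 9.40, a change of -0.41 ± 0.12 (adjusted p = 0.181). Its groups did not overlap in that probe set, and the others were at -0.33, with overlap, and -0.36, without. Mccc1, the alpha subunit, was at 11.14, 10.88 and 10.88 against 11.20, 11.14 and 11.17, a change of -0.20 ± 0.09 (adjusted p = 0.357). Labelled transgenic array 1 reached the other group there, while the dimmer Mccc1 probe set was at -0.56 without overlap, for an average of -0.38. Ivd, isovaleryl-CoA dehydrogenase, was at -0.13, and Auh, the methylglutaconyl-CoA hydratase, at -0.15, both with overlap, although the second Ivd probe set was at -0.22 without overlap. Ivd was at -0.07 without labelled transgenic array 3. Auh was at -0.08 without non-transgenic array 1, -0.25 without non-transgenic array 2 and -0.30 with the station as a term.

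The valine route had 4 negative genes, 3 of them lower at an unadjusted p under 0.05, where 7.76% of all genes were. Hibadh, hydroxyisobutyrate dehydrogenase, was at 12.42, 12.46 and 12.37 against 12.78, 12.55 and 12.76, a change of -0.28 ± 0.09 (adjusted p = 0.202). Hibch, the hydrolase before it, was at 10.15, 10.24 and 10.21 against 10.33, 10.48 and 10.50, a change of -0.24 ± 0.07 (adjusted p = 0.216) that was -0.13 with the station as a term. Aldh6a1, the methylmalonate-semialdehyde dehydrogenase that ends the route, was at 11.013, 10.997 and 10.769 against 11.13, 11.13 and 11.19, at -0.22 ± 0.09 (adjusted p = 0.288), and at -0.14 without labelled transgenic array 3. The groups of these 3 genes did not overlap. The second Hibadh probe set was at -0.19 without overlap, and the second Hibch probe set at -0.10 with overlap. Acad8, isobutyryl-CoA dehydrogenase, was at -0.14 with overlap, at -0.21 with non-transgenic array 2 left out and at -0.07 with non-transgenic array 3 left out.

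In their brightest probe sets the isoleucine genes stood near 0. Acadsb, the short/branched-chain acyl-CoA dehydrogenase, was at 0.04 with an interval from -0.16 to 0.24, and Acat1, the thiolase that also serves ketone bodies, was at -0.04 with an interval from -0.21 to 0.12. The other Acat1 probe sets were at -0.11, without overlap, and -0.15, with overlap, for an average of -0.10. Propionyl-CoA from isoleucine and valine enters the cycle as succinyl-CoA through Pcca, Pccb and Mmut. These were at -0.21, -0.19 and -0.28, all with overlap, and the second kept Mmut probe set was at -0.21 ± 0.07 without overlap. Pcca was at -0.13 without labelled transgenic array 3 and Pccb at -0.11 without non-transgenic array 1. With the station as a term Pccb was at -0.33 and Mmut at -0.43.

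Ketone body oxidation starts with Bdh1, hydroxybutyrate dehydrogenase, and continues with Oxct1, which activates acetoacetate. Bdh1 was at 12.24, 12.37 and 12.69 on the labelled transgenic arrays and at 11.94, 11.46 and 11.44 on the non-transgenic ones. Every labelled transgenic value was above the others, by 0.83 ± 0.18 or 1.77-fold (adjusted p = 0.120). The second Bdh1 probe set, at 8.42, 8.63 and 8.73 against 8.12, 7.67 and 7.49, gave 0.83 ± 0.18 (adjusted p = 0.116), likewise without overlap. Bdh1 was the one member higher at an unadjusted p under 0.05, where 10.4% of all genes were. With the station as a term the change was 0.50 (adjusted p = 0.296), and non-transgenic array 1 was the highest of its group. Across the alternatives the change was between 0.50 and 0.99, and the adjusted p between 0.0613 and 0.310. Oxct1 was at 0.06 with an interval from -0.09 to 0.21. Its brightest probe set was higher without overlap, as 14.3% of all genes were, while the other 3 lay between -0.004 and 0.046 with overlap.

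**Figure D3:**
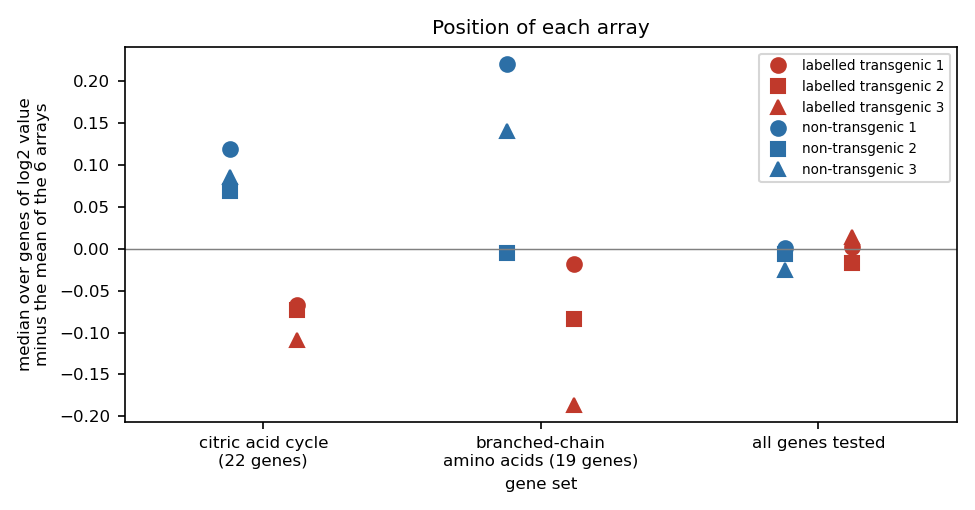
Median over the genes of an arm of the log2 value minus the mean of the 6 arrays (vertical axis), 1 point per array, with colour for the group and shape for the replicate number; the rightmost set shows all 11016 genes. Labelled transgenic and non-transgenic arrays lie apart in the cycle arm, from -0.11 to -0.07 against 0.07 to 0.12, while in the branched-chain arm non-transgenic array 2 lies at -0.005, beside labelled transgenic array 1 at -0.02.

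In the plot of array positions the branched-chain arm spread more widely between arrays of the same group. Non-transgenic array 1 was the highest of the 6 arrays in 14 of the 19 branched-chain genes and in 12 of the 22 cycle genes. Non-transgenic array 2 was the lowest of its group in 15 branched-chain genes and 11 cycle genes. Labelled transgenic array 3 was the lowest of its group in 12 branched-chain genes and 14 cycle genes. The 3 non-transgenic medians were 0.22, -0.005 and 0.14 in the branched-chain arm and the labelled transgenic ones -0.02, -0.08 and -0.19. Over all genes the array medians stayed between -0.03 and 0.01.

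**Figure D4:**
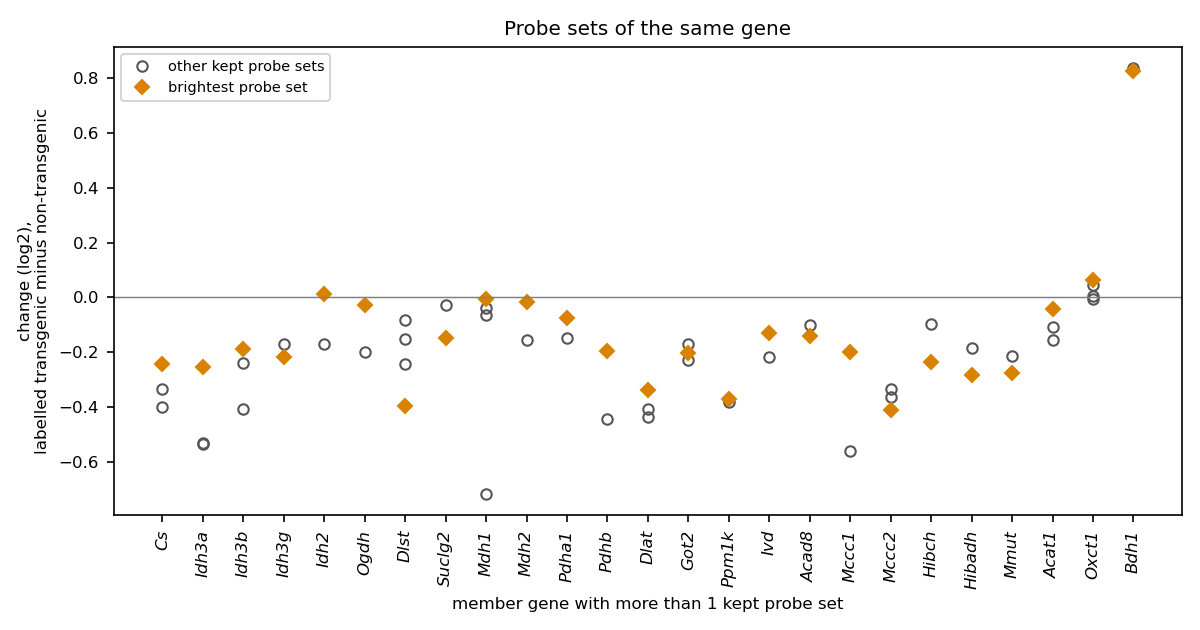
Change (vertical axis, log2, labelled transgenic minus non-transgenic) of every kept probe set of the 25 members with more than 1; diamonds mark the brightest probe set and open circles the others. In 23 of the 25 genes all probe sets share a sign, and Mdh1 shows the widest gap, from -0.004 to -0.72.

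Probe sets of the same gene mostly had changes of the same sign, in 23 of the 25 members with more than 1 kept probe set, and in 3006 of 5069 such genes in all. The exceptions were Idh2, at 0.01 with a dim second probe set at -0.17, and Oxct1. In 15 of the 25 the median of the dimmer probe sets was more negative than the brightest, or 60.0%, against 50.2% of all such genes. By mean level, the 3 members at log2 14 and over had a median of -0.02, the 19 from 12 to 14 one of -0.19, and the 14 from 10 to 12 one of -0.23. The 6 members from 8 to 10 had a median of -0.12, and the 1 from 6 to 8, Pcx, was at 0.25. Over all genes the medians were -0.04 at log2 14 and over, -0.02 from 12 to 14 and -0.008 from 10 to 12. They were 0.01 from 8 to 10 and 0.02 from 6 to 8. The median size of a change regardless of sign, over all genes, was 0.08 at log2 14 and over and 0.12 to 0.14 at every lower level.

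Of 59 further genes of these pathways and their known regulators, 53 were tested, 1 had only probe sets below the filter and 5 were not analysed here. Their median was -0.18 with 43 negative, against 47.6% of all genes. None was called by limma at an adjusted p under 0.05, against 0.227% of all genes. At an unadjusted p under 0.05, 14 were lower and 1 higher, where 7.76% and 10.4% of all genes were. Pdp2, a phosphatase that reactivates pyruvate dehydrogenase, was at -1.004 ± 0.20 (adjusted p = 0.102) on a dim probe set, at 4.84, 5.52 and 5.28 against 6.41, 6.25 and 5.99. Ppargc1a, a coactivator of mitochondrial genes, was at -0.71 ± 0.14 (adjusted p = 0.107), and Ppara, a receptor that drives fatty acid oxidation genes, at -0.55 ± 0.13 (adjusted p = 0.137). Idh1, the cytosolic isocitrate dehydrogenase, was at -0.41 ± 0.09 (adjusted p = 0.130). The groups of these 4 genes, named for the smallest p, did not overlap. Of the 53 tested, 18 were lower and 2 higher without overlap, against 10.9% and 14.3% of all genes. The single gene higher at an unadjusted p under 0.05 was Abat, a transaminase of gamma-aminobutyrate, at 0.84 ± 0.22 (adjusted p = 0.158), named after its value was seen.

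Markers of some other cell types differed between the groups and those of others did not pass at an unadjusted p under 0.05. The 12 cardiomyocyte markers had mean levels from log2 13.59 to 16, so heart muscle markers were present, a median change of 0.01 and none at an unadjusted p under 0.05. Of these, 3 were lower and 3 higher without overlap, against 10.9% and 14.3% of all genes. The lowest change among them was that of Ryr2, at -0.29. Their summed level was 18.69 to 18.71 on the labelled transgenic arrays and 18.71 to 18.73 on the others. Over all genes the median size of a change was 0.08 at log2 14 and over, against 0.12 to 0.14 at lower levels. Whether this brightness limited the changes of the cardiomyocyte markers was not tested. All 10 fibroblast markers were higher, 8 at an unadjusted p under 0.05, where 10.4% of all genes were, and 7 without overlap. Their summed level was 14.20 to 14.51 against 13.77 to 13.97. All 10 macrophage markers were higher, 9 at that threshold and 9 without overlap, with a summed level of 12.88 to 13.14 against 12.47 to 12.59. No marker of these 3 lists passed after adjustment, and their part in the lower member values was not tested. In whole tissue, fewer cells of a type and less RNA per cell cannot be told apart. The 8 endothelial markers had a median change of 0.05, with 3 negative and 5 positive, none at an unadjusted p under 0.05 and none without overlap.

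Of the 8 fat markers only 2 were tested, Fabp4 and Cidea, and these differed in direction. Another 2, Cfd and Plin1, were not analysed here. Adipoq, Lep, Ucp1 and Retn stayed at or below 2.51, under the brightness filter, while Fabp4, a fatty acid binding protein that endothelium also expresses, was at 14.28, 14.35 and 14.27 against 14.41, 14.63 and 14.61. Fabp4 was lower without overlap, by -0.25 ± 0.08 (adjusted p = 0.234), and Cidea, a lipid droplet protein, was higher without overlap, by 0.33 ± 0.11 (adjusted p = 0.238). Of the 9 skeletal muscle markers, Myh1, Myh2, Tnnt3, Actn3 and Pvalb stayed at or below 3.03, under the filter. The other 4, Mylpf, Atp2a1, Tnni2 and Myh4, passed it at mean levels from 3.32 to 4.70, with none at an unadjusted p under 0.05. The single tested markers of red cells, Alas2, and of lung, Ager, were at -0.20 and 0.21 with overlap. The part of fat or skeletal muscle in the member values was not tested.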

How the data were processed

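The deposited log2 values of the 6 arrays were used unaltered. Per the submitters' processing notes the authors used GCRMA, which corrects background and normalizes Affymetrix arrays; the version is not given. The other deposited files are text records of the instrument, which gave the fluidics station; they hold no expression values. Probe sets were named from the platform's 2016 annotation. After removal of 64 control probe sets, those with a mean above the median, log2 3.285, were tested (22518), and each gene was represented by its brightest probe set. Groups were compared by limma 3.58.1 (R 4.3.3; lmFit, then eBayes; 2-sided; Benjamini-Hochberg adjustment over all probe sets tested), the source of every adjusted p here. Its script was tested on simulated data. Values on every array are given for the 8 members of each arm with the smallest p and for any member higher at an unadjusted p under 0.05, and the 4 further pathway genes with the smallest p are named. Members, lists and rules were chosen with earlier results of these data known. Alternatives covered the filter, normalization, variance model, array weights, replicate number, station, Xist level, probe sets of a gene and each array left out. Promoter windows were RefSeq's, for GRCm38.p6. The number of arrays, 3 per group, limits the precision.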

Additional observations from a re-analysis of the deposited data

How the results depend on the processing

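Over the 18 alternatives, 37 of the 43 members kept the sign of their change. The median of the cycle arm ran from -0.20 to -0.18 and that of the branched-chain arm from -0.30 to -0.16. Called member probe sets numbered 0 except with a stricter brightness filter (mean above log2 6), where 5 were called (1 of Idh3a, 1 of Mdh1, 2 of Dlat and Pdhx), and with a trended variance, where 3 were (2 of Dlat and Dlst). Calls over all probe sets were more frequent there too, 302 of 13844 and 108 of 22518, against 49 of 22518. The count of cycle genes lower at an unadjusted p under 0.05 was 7 with the fluidics station as a term and 8 with the replicate number as a block, and from 8 to 11 with single arrays left out. Whether the replicate numbers pair arrays of the 2 groups is not labelled. Deviations of same-numbered arrays correlated at -0.08, -0.17 and -0.01. The block left 0 of all probe sets called by limma, and 3324 had an unadjusted p under 0.05. The branched-chain count was 8 with probe sets averaged by gene, where 8.1% of all genes were lower. With single arrays left out it ran from 2 to 8, where the shares of all genes ran from 5.14% to 7.43%.

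The signs that turned were those of members near 0, and the causes were not tested. Idh2 was at -0.12 with the station as a term, -0.079 averaged over its probe sets, and from -0.028 to 0.079 with single arrays left out. Ogdh was at 0.001 with array weights and from -0.069 to 0.026 with single arrays left out. Mdh1 was at 0.002 with quantile normalization, 0 with median centring, 0.034 with the station as a term and from -0.024 to 0.021 with single arrays left out. Mdh2 was at 0.018 with quantile normalization, 0.027 with the station as a term and from -0.037 to 0.006 with single arrays left out. Bcat2 was at 0.003 with median centring, 0.09 with the Xist level as a term and from -0.166 to 0.085 with single arrays left out. Acadsb ran from -0.009 to 0.109 with single arrays left out.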

Other observations

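The 3 dehydrogenase complexes of these pathways are built alike, with a decarboxylase (E1), a lipoate-bearing acyltransferase core (E2) and the shared Dld. Grouped this way after their values were seen, and so without a test, the core genes Dlat, Dlst and Dbt and the core-binding Pdhx were at -0.34, -0.40, -0.45 and -0.42, with a median of -0.41. The decarboxylase genes Pdha1, Pdhb, Ogdh, Bckdha and Bckdhb were at -0.08, -0.20, -0.03, -0.21 and -0.31, with a median of -0.20. All 4 of the first group were without overlap between the arrays of both groups, and 1 of the 5 in the second, where 10.9% of all genes were lower without overlap. These are brightest probe sets. Averaged over a gene's probe sets, Dlst was at -0.22, which is less negative than Pdhb at -0.32 and Bckdhb at -0.31, so the groups then overlap.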
